A study of Homo sapiens with 24 samples.

Results

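Immediate early genes are transcribed within minutes of a signal from ready-made factors, without new protein synthesis, and many of their mRNAs carry AU-rich elements and are quickly degraded. Their level therefore follows transcription and mRNA decay closely, and in AML cells it is fed by growth factor, stress and MAP kinase signaling. Fos proteins (FOS, FOSB) pair with Jun proteins (JUN, JUNB, JUND) to form AP-1, a dimeric transcription factor, while EGR1 is a zinc finger transcription factor driven by serum response factor and ETS proteins. IER2 and IER5 encode nuclear proteins. DUSP1 encodes a phosphatase that switches off p38 and JNK kinases, and ZFP36 encodes tristetraprolin, which binds AU-rich elements and recruits the decay machinery.

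These 10 genes were chosen by symbol, and all 10 were found among the 23354 genes of the deposited count table. RNA was sequenced from 2 established human AML lines, MV4-11 (monocytic, with an internal tandem duplication in FLT3) and KG-1a (an undifferentiated CD34+ line), both labelled WT and grown in medium with fetal bovine serum. Cells received no treatment, 1 μM 8CA (8-chloro-adenosine) or 1 μM 8AA (8-amino-adenosine), and were collected at 8 h or 24 h. This gave 12 groups, each with 2 libraries (A and B). In the table's own coordinates JUN lies at chr1:59246463-59249785 (-), FOS at chr14:75745481-75748937 (+) and EGR1 at chr5:137801181-137805004 (+); these differ from GRCh38, and hg19 is the other build in the submitters' processing notes. No vehicle is named for the untreated cells, and the hours of the untreated libraries come from their titles. Nothing in the labels says that libraries A and B were separate cultures, so p-values measure the spread between libraries, which may be technical.

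Libraries held 18633963 to 24520078 counts. Library pairs differed beyond counting noise, with a chi-square per degree of freedom of 1.43 to 12.3, the highest in KG-1a with 8AA at 24 h. Defining markers were high in the labelled line for FLT3, MEIS1, CD33 and LYZ in MV4-11 and for CD34 and CD7 in KG-1a, whereas DNTT stayed at 0 to 10 counts in KG-1a. HOXA9 and HOXA10, listed as MV4-11 markers, were lower in MV4-11 than in KG-1a (log2 differences of -1.71 and -0.48, untreated at 8 h). Of 8 markers of other cell types, EPCAM, MS4A1 and COL1A2 were at 0 in every library. The T cell gene CD3E was at 22.9 to 81.7 CPM (counts relative to the TMM-scaled library size) in KG-1a and at 0 in MV4-11. The summed level of these 8 markers was 44.0 and 44.1 CPM in untreated KG-1a at 24 h and 74.8 and 88.8 CPM with 8AA; its part in the results was not tested.

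Several of the 10 genes share features outside their expression. In GENCODE release 29, JUN, JUNB, JUND, IER2 and IER5 have a single exon, which holds for 5.94% of 19627 genes. At least 1 ATTTA pentamer, the core of AU-rich elements, lies in the 3′UTR of 9 of the 10 genes, against 62.8% of 18818 genes, and IER2 has 0. The longer TATTTAT, a preferred site of the ZFP36 family, lies in the 3′UTR of 7 genes, against 27.8% of all genes. ZFP36 had 7.01 pentamers per kb of 3′UTR, FOS 6.2 and DUSP1 5.95, against a median of 1.55 per kb over 3′UTRs of at least 100 bases. JUNB (4), IER5 (3.32) and JUN (2.33) were also above that median. JUND (1.47), FOSB (1.39), EGR1 (0.81) and IER2 (0) were below it. The windows below hold TATTTAT, and those of FOSB and JUND, which also hold it, are left out. A match describes letters in the 3′UTR, and its effect on mRNA decay was not tested. TATTTAT is in capitals (GRCh38, mRNA strand).

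FOS, chr14:75282059-75282088 (+): gtgtttttaattTATTTATtaagatggatt
JUN, chr1:58780819-58780848 (-): tttgcttatgaaTATTTATaacagcattct
IER5, chr1:181092446-181092475 (+): tcttccttTATTTATTTATTTATttaatta
DUSP1, chr5:172768643-172768672 (-): agggctggtcctTATTTATttaacttcacc
ZFP36, chr19:39409188-39409217 (+): ccttTATTTATgacgacttTATTTATtcta

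Upstream regions were searched on both strands in the 250 bases before each RefSeq start (GRCh38.p14), in the 10 genes and in 35116 promoters of all genes. The CArG box, the binding site of serum response factor, occurred in 1.16% of all promoters and in 1 of the 10, EGR1, which had 2 copies at -105 and -83. TGACGTCA, the full cAMP response element, occurred in 1.65% of all promoters and in JUND and DUSP1. TGACATCA, the Jun/ATF site, occurred in 2.37% of all promoters and, among the 10, in JUN at -67. Of the other motifs searched, TGACG (which lies inside TGACGTCA) occurred in 21.2% of all promoters and in 8 of the 10, TATAA in 18.9% and in 7, GGGCGG in 42.6% and in 7, and TGANTCA, the AP-1 site, in 6.57% and in 0. A match describes letters in this window and shows no binding. These stretches are shown because EGR1, JUN, JUND and DUSP1 are the members with a CArG box, TGACATCA or TGACGTCA; the named motif is in capitals, and in EGR1 also CGTCA, the core of the cAMP response element.

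EGR1, chr5:138465229-138465478 (+): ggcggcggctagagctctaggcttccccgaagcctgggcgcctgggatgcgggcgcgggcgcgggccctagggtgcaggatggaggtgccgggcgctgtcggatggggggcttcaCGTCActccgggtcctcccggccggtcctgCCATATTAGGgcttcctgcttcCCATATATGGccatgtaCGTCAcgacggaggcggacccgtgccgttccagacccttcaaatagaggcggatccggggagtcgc
JUN, chr1:58784096-58784125 (-): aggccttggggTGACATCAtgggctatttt
JUND, chr19:18281804-18281833 (-): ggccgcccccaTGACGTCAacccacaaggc
DUSP1, chr5:172771302-172771331 (-): ggcagggcgggTGACGTCAccgccccgtca

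Without drug, the 10 genes lay at very different levels and mostly higher in MV4-11. Per kb of exon, JUND, the Jun protein that resting cells keep, was the most abundant in both lines (106 ± 0.302 CPM per kb in MV4-11 and 35.7 ± 2.96 in KG-1a at 8 h, SD, n = 2), and FOSB the least (0.275 ± 0.0621 and 0.0750 ± 0.00871). In MV4-11 at 8 h, JUNB (51.9 ± 1.47), IER2 (23.6 ± 0.393), ZFP36 (20.7 ± 1.14) and IER5 (15.7 ± 0.421) followed, then FOS (14.1 ± 3.60), whose spread included the IER5 level. EGR1 (2.28 ± 0.578), JUN (1.02 ± 0.176) and DUSP1 (0.524 ± 0.0602 CPM per kb) were lower. In KG-1a at 8 h the spread of IER5 (14.7 ± 1.02 CPM per kb) overlapped those of IER2 (15.8 ± 1.13) and JUNB (12.6 ± 1.83). IER2 lay above JUNB beyond their spreads. Likewise the spread of EGR1 (0.267 ± 0.0929) overlapped those of FOS (0.353 ± 0.0761) and JUN (0.247 ± 0.0224), and FOS lay above JUN beyond theirs.

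FOS differed most between the untreated lines. MV4-11 had 39.7 and 27.6 CPM at 8 h and 24.1 and 20.5 CPM at 24 h, and KG-1a had 0.713 and 0.970 CPM, then 1.16 and 1.03 CPM. The groups did not overlap, and the log2 difference was 5.38 ± 0.42 (SE) at 8 h and 4.44 ± 0.38 at 24 h. EGR1 was also higher in MV4-11, by 3.18 ± 0.29 and 3.53 ± 0.31, and ZFP36 by 2.46 ± 0.10 and 2.34 ± 0.09. DUSP1 was the one gene that went the other way: KG-1a had 6.20 and 4.95 CPM at 8 h and MV4-11 1.30 and 1.11 CPM, a log2 difference of -2.12 ± 0.23. In edgeR's quasi-likelihood test, with p-values adjusted by Benjamini-Hochberg (threshold 0.05), 9 of the 10 differed at 8 h and 10 at 24 h, where 82.2% and 82% of 14055 genes did, so the count says little beyond a general difference between lines. IER5 at 8 h was the exception (0.17 ± 0.08, adjusted p = 0.065), and it passed without KG-1a untreated library B (0.037), with DESeq2 (0.039) or its size factors (0.025), without the filter (0.0040) and under upper quartile scaling (0.011).

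In KG-1a, FOS (4 to 31 counts per library), JUN (3 to 23), EGR1 (6 to 19) and FOSB (1 to 14) were close to the limit of detection. FOSB passed the filter in that line through treated libraries, since 0 of its 4 untreated libraries reached the filter level. Folds of these 4 genes in KG-1a therefore have wide intervals, as the wide bars of the plot of changes show. In MV4-11 all 10 genes reached that level in all 12 libraries.

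**Figure D1:**
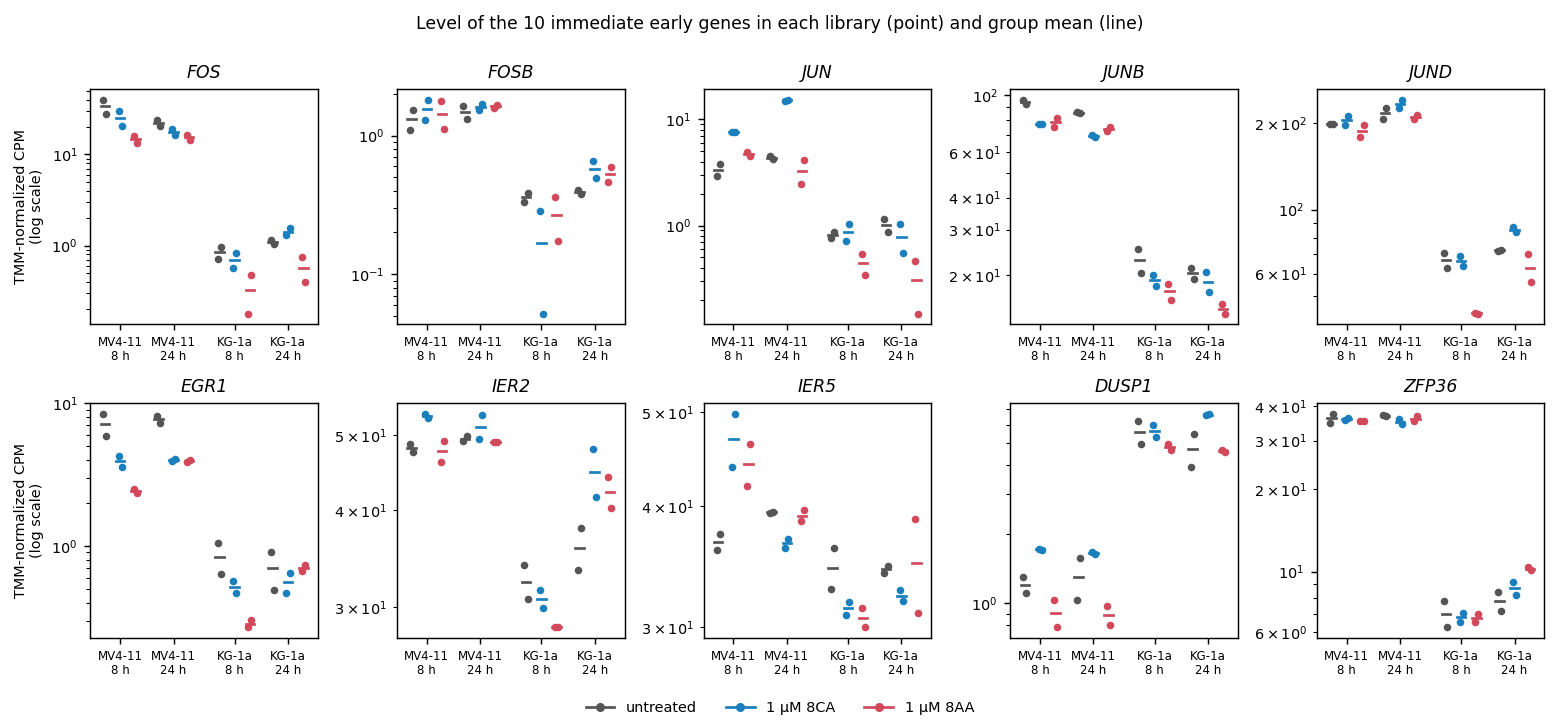
TMM-normalized CPM (log scale, a separate range for each gene) of the 10 genes in MV4-11 and KG-1a at 8 h and 24 h; points are libraries and lines are means of 2 libraries. JUN in MV4-11 rises with 8CA to 15.0 and 15.3 CPM at 24 h, EGR1 in MV4-11 lies below its untreated level with either drug, and FOS, EGR1 and JUN are at 1.54 CPM or below in KG-1a.

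The main question was what each drug did to the genes at each time against untreated cells of the same line and hour. Levels are relative to the TMM-scaled library size, so a rise or fall is relative to the other mRNAs of a library. A change in total mRNA per cell would not be seen and was not tested. The 8CA and 8AA comparisons of a time point share their untreated libraries, so their values are given side by side and not as independent results. In MV4-11 4 of the 10 genes changed with 8CA at 8 h (2 lower and 2 higher, where 10.4% of 12800 genes changed, 5.77% lower and 4.58% higher), and 4 with 8AA (3 lower, 1 higher, against 29.2%, 15.6% lower and 13.6% higher). At 24 h, 3 changed with 8CA (2 lower, 1 higher, against 43.9%, 22.7% lower and 21.2% higher) and 3 with 8AA (all lower, against 29.1%, 15.3% lower and 13.9% higher). In KG-1a 0 changed with 8CA at 8 h, where 0.881% of 12711 genes did, 0.181% lower and 0.7% higher (edgeR; JUNB alone had an unadjusted p under 0.05, 0.042, and DESeq2 also called 0), and 4 with 8AA (all lower, against 34.7%, 18% lower and 16.7% higher). At 24 h, 3 changed with 8CA (all higher, against 47.4%, 24% lower and 23.4% higher) and 4 with 8AA (2 lower, 2 higher, against 51.9%, 26.6% lower and 25.4% higher). The share of the 10 that changed stood furthest above that of all genes for 8CA at 8 h in MV4-11, lay nearer to it for 8AA at 8 h in both lines and at 24 h with 8AA in MV4-11, and was below it in the other comparisons.

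The genes did not move as a block. Over the 8 comparisons JUNB was lower in 6 and EGR1 in 5, with 0 higher for either gene, and FOS was lower in 3. JUN was higher in 2 and lower in 1. IER2 and IER5 were each higher in 2 and lower in 0, DUSP1 and ZFP36 each higher in 1, JUND lower in 1 and higher in 1, and FOSB changed in 0. The median log2 fold change of the 10 was between -0.42 (KG-1a, 8AA at 8 h) and 0.20 (KG-1a, 8CA at 24 h), where the median of all genes tested lay between -0.0047 and 0.0134.

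**Figure D2:**
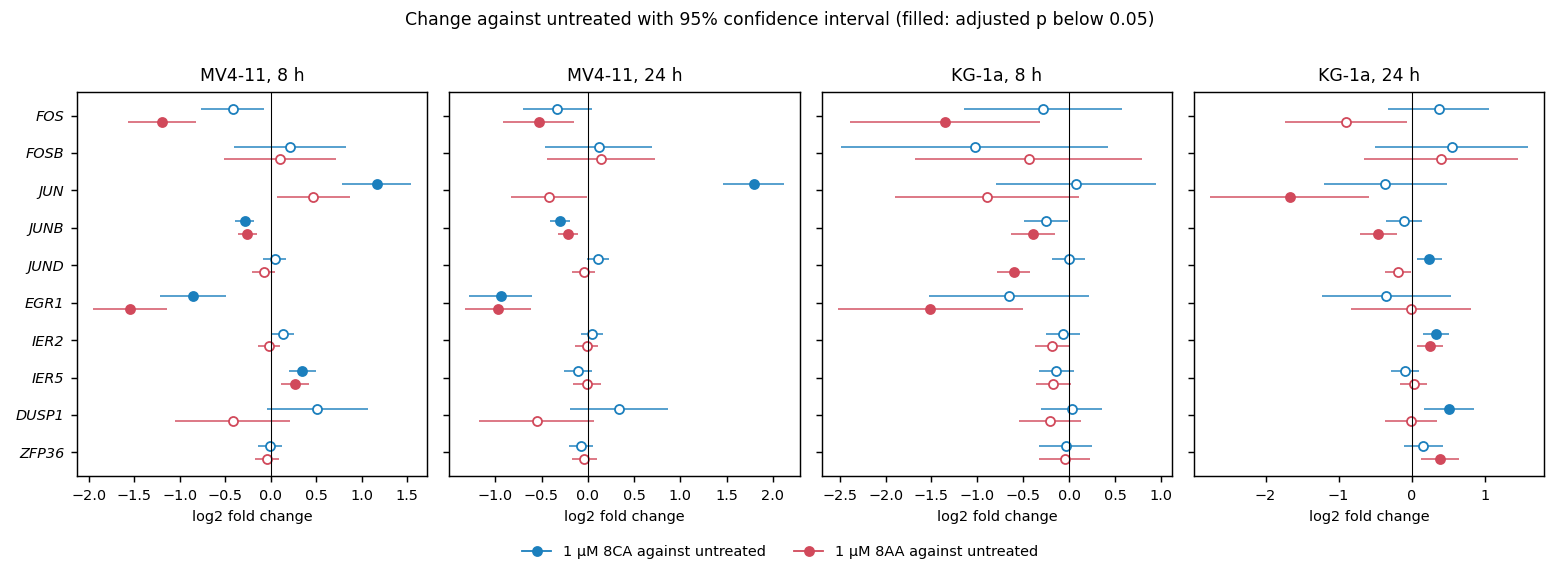
Log2 fold change against untreated cells (x axis, with its own range in each panel) of each gene, by line and time; bars are 95% confidence intervals and filled points have an adjusted p below 0.05. JUN stands far to the right with 8CA in MV4-11, EGR1 and JUNB lie left of zero with either drug in MV4-11, and the intervals of FOS, FOSB, JUN and EGR1 are widest in KG-1a.

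Among the Jun genes, JUN, the founding AP-1 subunit and a target of its own product, was the gene that most separated the drugs in MV4-11. In MV4-11 at 8 h it had 2.96 and 3.79 CPM untreated, 7.54 and 7.69 CPM with 8CA, and 4.91 and 4.50 CPM with 8AA. At 24 h it had 4.50 and 4.24 CPM untreated, 15.0 and 15.3 CPM with 8CA, and 2.47 and 4.12 CPM with 8AA. Both 8CA libraries stood above all untreated and 8AA libraries of their hour, while at 24 h both 8AA libraries were below the untreated ones, library A further than library B. JUN rose with 8CA by 1.17 ± 0.18 (log2, 2.25-fold, adjusted p = 0.00088) at 8 h and by 1.79 ± 0.15 (3.46-fold, adjusted p = 2.0e-07) at 24 h. With 8AA the change missed the threshold (0.47 ± 0.19, adjusted p = 0.075, and -0.42 ± 0.19, adjusted p = 0.12). Without 8AA library B the 24 h value was -0.82 (adjusted p = 0.0089).

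JUN in KG-1a had 23 and 16 counts untreated at 24 h, 22 and 11 with 8CA, and 11 and 3 with 8AA. Its log2 fold change with 8AA was -1.67 ± 0.51 (adjusted p = 0.0079), and with 8CA -0.36 (95% interval -1.20 to 0.48). Without 8AA library B, the one with 3 counts, the 8AA value was -1.14 (adjusted p = 0.059), and without untreated library A it was -1.46 (adjusted p = 0.073), both over the threshold. The response of JUN to 8CA at 24 h was higher in MV4-11 than in KG-1a by 2.17 ± 0.43 (adjusted p = 0.0016 over 24 libraries), in a comparison where 11.2% of 14055 genes differed. At 8 h that difference was 1.10 ± 0.46 (adjusted p = 0.34).

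JUNB, a Jun protein that often opposes JUN, fell modestly in every MV4-11 comparison. At 24 h it had 86.2 and 85.0 CPM untreated, 70.1 and 68.9 CPM with 8CA, and 72.7 and 75.4 CPM with 8AA, with no overlap. The log2 fold changes at 8 h were -0.29 ± 0.05 with 8CA (adjusted p = 0.0025) and, under 8AA, -0.26 ± 0.05 (adjusted p = 0.0013). At 24 h they were -0.30 ± 0.05 (adjusted p = 0.00021) and -0.21 ± 0.05 (adjusted p = 0.0058); the last was lost in a fit of all 24 libraries (-0.19, adjusted p = 0.060). In KG-1a JUNB fell with 8AA, by 0.40 ± 0.11 at 8 h and 0.46 ± 0.12 at 24 h on the log2 scale (adjusted p = 0.013 and 0.0043); the 8CA values were -0.25 (95% interval -0.50 to -0.01) and -0.11 (-0.35 to 0.14). Without untreated library A or 8AA library B the 8 h call was lost (adjusted p = 0.19 and 0.14).

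JUND, which has the TGACGTCA match shown above, passed the test in 2 comparisons, both in KG-1a. It had 70.6 and 62.7 CPM untreated at 8 h, 69.0 and 63.8 CPM with 8CA, and 43.9 and 43.6 CPM with 8AA. Both 8AA libraries were below all the others, and JUND fell by 0.61 ± 0.09 on the log2 scale (adjusted p = 7.1e-05). At 24 h the 8AA libraries were unlike each other (69.9 and 56.0 CPM, against 71.7 and 72.6 CPM untreated), and the change was -0.19 ± 0.08 (adjusted p = 0.064). It was -0.37 without 8AA library A. The change passed the test without the filter (-0.20, adjusted p = 0.0097) and with a replicate block, a term for the library letter (-0.20, adjusted p = 0.020). With 8CA at 24 h JUND rose by 0.24 ± 0.08 (adjusted p = 0.025), a call lost without any one of the 4 libraries (adjusted p = 0.063 to 0.14). The 8AA response was higher at 24 h than at 8 h by 0.41 ± 0.12 (adjusted p = 0.026), lost without untreated A or B of 24 h, untreated A of 8 h or either 8AA library of 8 h (adjusted p = 0.076 to 0.13). In MV4-11 the 4 changes lay between -0.08 and 0.11. With 8CA at 24 h JUND passed there under library size scaling (0.16, adjusted p = 0.023) and upper quartile scaling (0.15, adjusted p = 0.042). It also passed with the replicate block (0.11, adjusted p = 0.033). The 8AA response at 8 h was higher in MV4-11 than in KG-1a by 0.57 ± 0.11 (adjusted p = 0.0014), where 11.1% of genes differed.

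Among the Fos genes, FOS fell with 8AA and less with 8CA in MV4-11. At 8 h it had 39.7 and 27.6 CPM untreated, 29.6 and 20.4 CPM with 8CA, and 16.0 and 13.4 CPM with 8AA. Both 8AA libraries were below the rest, while the 8CA and untreated groups overlapped. FOS fell with 8AA by 1.20 ± 0.18 on the log2 scale at 8 h, to 0.435 of the untreated level (adjusted p = 0.00012), and by 0.53 ± 0.18 at 24 h (adjusted p = 0.037). The 24 h call was lost without any one of its 4 libraries (adjusted p = 0.062 to 0.23), with DESeq2 (0.12) and under library size or upper quartile scaling (0.078 and 0.058). With 8CA the values were -0.42 ± 0.16 at 8 h (adjusted p = 0.12) and -0.33 ± 0.18 at 24 h (adjusted p = 0.14). The 8 h value was -0.73 without 8CA library A and -0.68 without untreated library B. At 8 h library A was above library B in each group. Both 8CA values passed the test with the replicate block (adjusted p = 0.0033 and 0.0072) and without the filter (adjusted p = 4.7e-05 and 0.0026). The untreated level itself was lower at 24 h than at 8 h, by a log2 difference of -0.59 ± 0.17 (adjusted p = 0.050, just over the threshold, and 0.013 without untreated library B of 8 h), and 5.54% of genes differed between these untreated groups. In untreated KG-1a 0 of the 10 differed between hours, where 4.45% of genes did.

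In KG-1a FOS had 13 and 20 counts untreated at 8 h, 12 and 16 with 8CA and 4 and 11 with 8AA. It fell with 8AA by 1.35 ± 0.49 (log2, adjusted p = 0.033), a call lost without untreated library B (-1.10, adjusted p = 0.21) or 8AA library A (-0.83, adjusted p = 0.25), with DESeq2 (0.086) and in a fit of all 24 libraries (0.14). At 24 h the 8AA value was -0.90 ± 0.39 (adjusted p = 0.063), and -1.47 (adjusted p = 0.022) without 8AA library A. FOSB changed in neither line, with adjusted p-values of 0.37 to 0.83; its counts of 1 to 39 leave room for sizeable changes, the 95% interval in MV4-11 with 8CA at 24 h being -0.46 to 0.69.

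EGR1 fell with both drugs in MV4-11. At 8 h it had 8.43 and 5.87 CPM untreated, 4.26 and 3.57 CPM with 8CA, and 2.51 and 2.35 CPM with 8AA. At 24 h it had 8.10 and 7.23 CPM, 3.91 and 4.06 CPM, and 3.84 and 3.98 CPM. The untreated libraries were above all treated ones at either time, and the 2 drugs were at nearly the same level at 24 h. EGR1 fell with 8CA by 0.85 ± 0.17 on the log2 scale at 8 h (adjusted p = 0.0048) and by 0.94 ± 0.16 at 24 h (adjusted p = 0.00022). With 8AA it fell by 1.55 ± 0.19 (to 0.341 of untreated, adjusted p = 1.9e-05) and by 0.97 ± 0.17 (adjusted p = 0.00042). Without untreated library A, the 8 h value with 8CA was -0.58 (adjusted p = 0.069).

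In KG-1a EGR1 had 19 and 13 counts untreated at 8 h and 6 and 7 counts with 8AA, and fell by 1.51 ± 0.48 on the log2 scale (adjusted p = 0.016). That call was lost without untreated library A (-1.12, adjusted p = 0.15), 8AA library A (-1.43, adjusted p = 0.085) or 8AA library B (-1.60, adjusted p = 0.068). At 24 h it had 18 and 9 counts untreated and 16 and 15 counts with 8AA, and the value was -0.01 (95% interval -0.83 to 0.81). Neither 8CA comparison passed the test in KG-1a (-0.66 ± 0.41 and -0.35 ± 0.41).

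IER5, which is known to act on heat shock factor HSF1, was raised early in MV4-11. It had 36.0 and 37.4 CPM untreated at 8 h, 43.9 and 49.8 CPM with 8CA, and 42.0 and 46.3 CPM with 8AA. All 4 treated libraries were above both untreated ones, and the rise was 0.35 ± 0.07 (log2, adjusted p = 0.0055) with 8CA and 0.27 ± 0.07 (adjusted p = 0.0093) with 8AA. The calls were lost without untreated library A (adjusted p = 0.051 and 0.064) or library B of the drug (adjusted p = 0.076 and 0.11). At 24 h the values were -0.11 ± 0.07 and -0.01 ± 0.07. The 8CA response was lower at 24 h than at 8 h by a log2 difference of -0.45 ± 0.10 (adjusted p = 0.0055), where 16.3% of genes differed; for 8AA in MV4-11 0 of the 10 responses passed this test, where 4.63% of genes did. In KG-1a all 4 values lay between -0.17 and 0.03. The 8 h response was higher in MV4-11 than in KG-1a by 0.50 ± 0.12 with 8CA (adjusted p = 0.036, where 1.15% of genes differed) and by 0.48 ± 0.12 with 8AA (adjusted p = 0.0092). The first was lost without any one of 6 libraries, all but MV4-11 8CA A and KG-1a untreated A (adjusted p = 0.073 to 0.22), and the second without library B of MV4-11 8AA, KG-1a 8AA or KG-1a untreated (adjusted p = 0.050 to 0.066).

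IER2 rose late, and in KG-1a. It had 33.5 and 38.0 CPM untreated at 24 h, 47.9 and 41.7 CPM with 8CA, and 44.2 and 40.2 CPM with 8AA. Both drugs' libraries were above the untreated ones, and the rise was 0.33 ± 0.08 (log2, adjusted p = 0.0044) with 8CA and 0.24 ± 0.08 (adjusted p = 0.023) with 8AA. Without untreated library A (adjusted p = 0.10 and 0.29) or library A of the drug (adjusted p = 0.090 and 0.10) neither call was kept. The response was higher at 24 h than at 8 h by 0.40 ± 0.12 with 8CA (adjusted p = 0.027, where 23.9% of genes differed) and by 0.43 ± 0.12 with 8AA (adjusted p = 0.021, where 18.3% did). Leaving out untreated library A of either hour or either 8 h library of the drug lost both calls, and leaving out 8CA library A of 24 h lost the first (adjusted p = 0.054 to 0.15). In MV4-11 the values lay between -0.01 and 0.14. The difference between lines in the IER2 response at 24 h did not pass the test with either drug. With 8AA it passed without the filter (-0.31, adjusted p = 0.023). It also passed there under library size scaling (-0.30, adjusted p = 0.031) and upper quartile scaling (-0.29, adjusted p = 0.044).

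DUSP1, whose promoter window holds TGACGTCA, rose with 8CA in KG-1a at 24 h. It had 3.93 and 5.44 CPM untreated, 6.58 and 6.70 CPM with 8CA, and 4.68 and 4.58 CPM with 8AA. Both 8CA libraries were above all the others, and the rise was 0.51 ± 0.16 (log2, adjusted p = 0.014). The call was lost without untreated library A (0.27, adjusted p = 0.24) or either 8CA library (adjusted p = 0.052 and 0.063) and with DESeq2 (0.057). In MV4-11, at 17 to 42 counts, the values were 0.51 ± 0.26 and 0.34 ± 0.25 for 8CA, and -0.42 ± 0.30 and -0.55 ± 0.29 for 8AA at 8 h and 24 h, and 0 of these 4 passed the test. ZFP36 was steady in MV4-11, at 34.5 to 37.6 CPM over all 12 libraries. It rose in KG-1a with 8AA at 24 h, from 8.42 and 7.18 CPM to 10.4 and 10.1 CPM, by 0.39 ± 0.12 (adjusted p = 0.013, but 0.14 without untreated library B and 0.066 with DESeq2). The 24 h response to 8AA was lower in MV4-11 than in KG-1a, by -0.41 ± 0.13 (adjusted p = 0.023, where 22.3% of genes differed), a call lost without library A of MV4-11 untreated, MV4-11 8AA or KG-1a 8AA or without KG-1a untreated library B (adjusted p = 0.052 to 0.17).

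8CA and 8AA differ in a single substituent of the adenine ring, chlorine in 8CA and an amino group in 8AA, and were used at the same dose and hours, so they were compared directly in 4 comparisons. In each, the genes that differed were lower with 8AA: 2 of 10 in MV4-11 at 8 h (6.66% of genes differed in either direction) and 2 at 24 h (21.2%), and 1 in KG-1a at 8 h (30.4%) and 5 at 24 h (42%). Over all genes the 2 directions were near balance, with 3.7% lower and 2.96% higher in MV4-11 at 8 h, 9.48% and 11.7% at 24 h, and in KG-1a 15.8% and 14.7% at 8 h and 21.7% and 20.3% at 24 h.

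JUN in MV4-11 at 24 h gave the largest difference among the 10 in these 4 comparisons, -2.21 ± 0.17 on the log2 scale (8AA at 0.216 of the 8CA level, adjusted p = 1.2e-07). At 8 h the JUN difference was -0.70 ± 0.16 (adjusted p = 0.017), which was lost without 8AA library B or either 8CA library (adjusted p = 0.076 to 0.11). FOS differed in MV4-11 at 8 h by -0.78 ± 0.18 (adjusted p = 0.016), lost without 8AA library B or 8CA library A (adjusted p = 0.12 and 0.22). In KG-1a FOS differed at 24 h by -1.27 ± 0.37 (adjusted p = 0.0099), lost without 8AA library B or 8CA library B (adjusted p = 0.066 and 0.068), with DESeq2 (0.057) and when all 24 libraries were fitted together (0.063). JUND differed in KG-1a by -0.60 ± 0.09 at 8 h (adjusted p = 9.7e-05) and by -0.43 ± 0.08 at 24 h (adjusted p = 0.00059).

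DUSP1 was lower with 8AA than with 8CA at 24 h in both lines. In MV4-11 it had 1.68 and 1.64 CPM with 8CA against 0.972 and 0.805 CPM with 8AA, and the difference was -0.89 ± 0.28 (adjusted p = 0.028), lost without any one of the 4 libraries (adjusted p = 0.070 to 0.16) and with DESeq2 (0.17). In KG-1a the difference was -0.52 ± 0.15 (adjusted p = 0.012), lost without either 8CA library (adjusted p = 0.051 and 0.059) and with DESeq2 (0.055). In KG-1a at 24 h, JUN (-1.31 ± 0.52, adjusted p = 0.044) and JUNB (-0.35 ± 0.12, adjusted p = 0.026) were also lower with 8AA, both lost without 8CA library A (adjusted p = 0.39 and 0.28) or 8AA library B (adjusted p = 0.23 and 0.054) and under library size scaling (0.055 and 0.066), and JUN also with DESeq2 (0.11).

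The drugs were not told apart for EGR1 at 24 h in MV4-11, with a difference of -0.03 (95% interval -0.41 to 0.36), nor for JUNB there (0.09, interval -0.02 to 0.20). Intervals for ZFP36 were -0.16 to 0.11 and -0.10 to 0.17 in MV4-11 at 8 h and 24 h, and -0.29 to 0.27 and -0.02 to 0.48 in KG-1a. For IER5 they were -0.23 to 0.06 and -0.05 to 0.24 in MV4-11, and -0.22 to 0.16 and -0.07 to 0.30 in KG-1a. FOSB had the widest, up to -0.91 to 2.08 in KG-1a at 8 h.

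**Figure D3:**
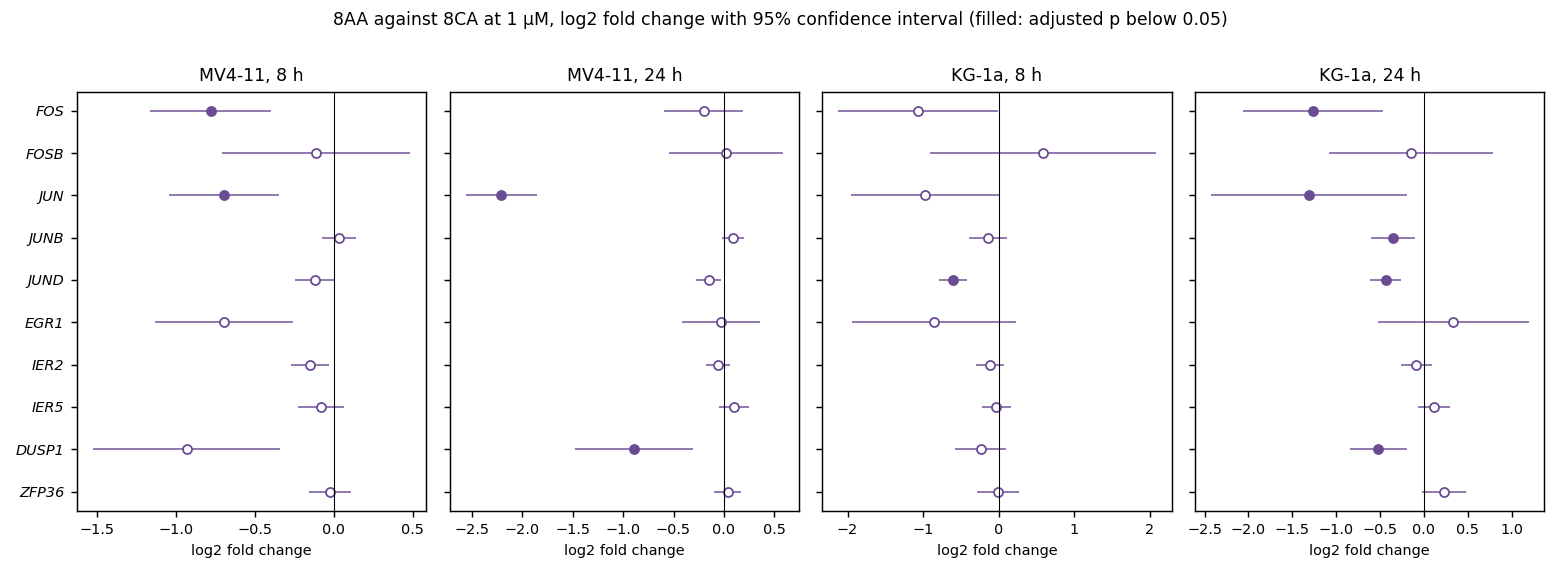
Log2 fold change of 8AA against 8CA at 1 μM (x axis, with its own range in each panel) for each gene, by line and time; bars are 95% confidence intervals and filled points have an adjusted p below 0.05. All filled points lie left of zero, 2 of 10 in MV4-11 at each time and 1 and 5 in KG-1a, with JUN at -2.21 in MV4-11 at 24 h.

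Related genes from lists written with the 10 showed a split by drug in 2 partners of Jun proteins, ATF3 and JDP2. ATF3, a stress-induced partner of Jun proteins, had 2.25 and 2.66 CPM untreated in MV4-11 at 24 h, 3.79 and 4.02 CPM with 8CA, and 1.41 and 1.14 CPM with 8AA. In KG-1a it had 4.28 and 3.48 CPM untreated, 18.6 and 16.8 CPM with 8CA, and 2.17 and 2.07 CPM with 8AA. In both lines the 8CA libraries were highest and the 8AA libraries lowest. ATF3 rose with 8CA by 0.66 ± 0.17 and 2.18 ± 0.15 on the log2 scale in MV4-11 and KG-1a (adjusted p = 0.0045 and 7.6e-09), and fell with 8AA by 0.94 ± 0.22 and 0.87 ± 0.20 (adjusted p = 0.0036 and 0.0016).

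JDP2, a Jun partner that represses AP-1 targets, did likewise at 24 h. It had 6.56 and 7.50 CPM untreated in MV4-11, 13.3 and 14.0 CPM with 8CA, and 3.62 and 4.50 CPM with 8AA. JDP2 rose with 8CA by 0.96 ± 0.12 in MV4-11 and 1.60 ± 0.13 in KG-1a (log2, adjusted p = 9.7e-06 and 5.7e-08) and fell with 8AA by 0.80 ± 0.14 and 0.46 ± 0.15 (adjusted p = 0.00064 and 0.020). The ATF3 response to 8CA at 24 h was lower in MV4-11 than in KG-1a, by -1.50 ± 0.22 (adjusted p = 6.9e-05), the opposite of JUN. TRIB1, a pseudokinase that directs ubiquitylation, fell by 0.72 ± 0.11 and 0.69 ± 0.12 in MV4-11 with 8CA and 8AA at 24 h and by 0.58 ± 0.20 in KG-1a with 8CA, and rose by 0.86 ± 0.17 in KG-1a with 8AA. FOSL1, a Fos-family partner, fell in all 4 comparisons at 24 h, by 0.39 ± 0.08 to 1.15 ± 0.10 on the log2 scale.

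The lists are read against the shares of all genes: at 24 h 22.7% fell and 21.2% rose with 8CA in MV4-11, 15.3% and 13.9% with 8AA, 24% and 23.4% with 8CA in KG-1a, and 26.6% and 25.4% with 8AA. Of 14 AP-1 partners, 12 passed the filter in MV4-11 and 11 in KG-1a. At 24 h 4 fell and 3 rose with 8CA in MV4-11, 4 fell and 1 rose with 8AA, 3 fell and 7 rose with 8CA in KG-1a, and 7 fell and 3 rose with 8AA. Of 9 other MAP kinase phosphatases, the relatives of DUSP1, 8 passed the filter in MV4-11 and 7 in KG-1a. Counts for this list are given for 8AA at 8 h only, unlike the 24 h counts of the other lists. In MV4-11 3 fell and 1 rose, where 15.6% of all genes fell and 13.6% rose. In KG-1a 5 fell and 0 rose, where 18% of all genes fell and 16.7% rose. DUSP2 fell in all 4 comparisons at 24 h, by 0.36 ± 0.13 to 1.02 ± 0.15 on the log2 scale. Of 32 other immediate early genes, 25 and 21 were tested; at 24 h 9 fell and 5 rose with 8CA in MV4-11, and 3 fell and 12 rose with 8CA in KG-1a. With 8AA at 24 h 10 fell and 1 rose in MV4-11, and 4 fell and 7 rose in KG-1a.

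A list of 15 genes covered the binding and decay of AU-rich mRNAs. Of these, ELAVL1 and HNRNPD, which bind AU-rich elements, fell in all 4 comparisons at 24 h. On the log2 scale ELAVL1 fell by 0.34 ± 0.05 to 0.47 ± 0.05 and HNRNPD by 0.29 ± 0.04 to 0.32 ± 0.05. In that list 3 to 7 genes fell and 1 to 3 rose at 24 h, where 15.3% to 26.6% of all genes fell and 13.9% to 25.4% rose. Among 19 upstream kinases and transcription factors, 4 to 6 fell at 24 h and 0 to 3 rose, against the same shares of all genes; MAPK9, which encodes the JNK2 kinase that phosphorylates Jun proteins, fell by 0.24 ± 0.06 to 0.39 ± 0.06, and ELK3, a serum response factor partner, had -0.32, -0.32, -0.36 and 0.24 with 8CA and 8AA in MV4-11 and then in KG-1a. A list of 20 long-lived transcripts, chosen as a contrast to rapid turnover, had 11 to 14 genes lower and 2 to 4 higher at 24 h, where 15.3% to 26.6% of all genes were lower and 13.9% to 25.4% higher, and medians between -0.42 and -0.21, below those of the 10 genes. Its members TUBA1B, PKM and TPI1 fell in all 4 comparisons at 24 h, with log2 fold changes of -0.87 to -0.37, -0.77 to -0.23 and -0.76 to -0.29.

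**Figure D4:**
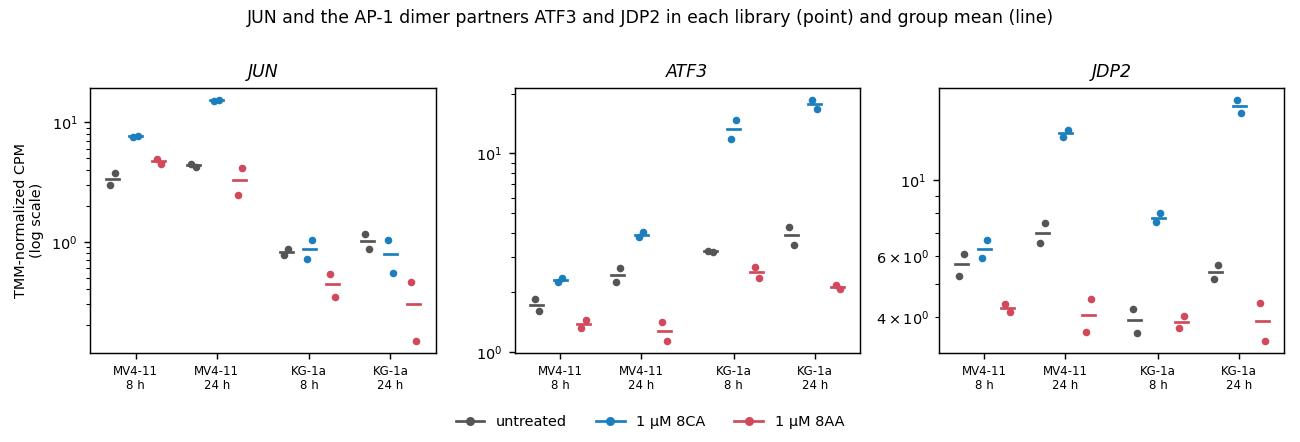
TMM-normalized CPM (log scale) of JUN and its partners ATF3 and JDP2 in each library (points), with means of 2 libraries (lines). At 24 h the 8CA libraries are highest and the 8AA libraries lowest for ATF3 and JDP2 in both lines; for JUN this holds in MV4-11, while in KG-1a JUN is at 1.16 CPM or below.

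Across the 12 libraries of a line, with groups and depth in common, the genes formed different pairs in each line, as a description of these libraries. In MV4-11 FOS went with EGR1 (Pearson r = 0.73) and JUN ran against JUNB (r = -0.63). In KG-1a JUN went with JUNB (r = 0.78), FOS with JUND (r = 0.86) and IER2 with ZFP36 (r = 0.81). Over all 24 libraries, centred within each line, the genes most like JUND were LAT2 (r = 0.94), SPRED2 (0.93) and DUSP6 (0.93), and those most like EGR1 were WT1 (0.85), PTPN7 (0.79) and GPR84 (0.78). JUN was closest to RIPK2 (0.82), TMEM206 (0.81) and NOB1 (0.77), FOS to WNT3 (0.84), PALD1 (0.80) and ATP6V0E2-AS1 (0.80), and FOSB to RASA4CP (0.86), MAP10 (0.82) and NFATC1 (0.81). JUNB was closest to KLF16 (0.90), FEM1A (0.88) and HPDL (0.88), IER2 to CTDSP1 (0.92), ADGRG1 (0.92) and LRRC56 (0.90), and IER5 to RIPOR2 (0.75), CBY1 (0.75) and ZNRD1 (0.74). DUSP1 was closest to BAZ1B (0.77), LMTK2 (0.77) and CWC22 (0.76), and ZFP36 to LAMB4 (0.92), CDH2 (0.89) and TMIGD2 (0.88). These genes were picked as the highest among all other genes of the fit, so high values follow from the choice. FOS, FOSB, JUN and EGR1 rest on 1 to 31 counts per library in KG-1a.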

How the data were processed

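RNA from MV4-11 and KG-1a cells was sequenced in 24 libraries, 2 in each of 12 groups taken from the labels. The authors deposited raw counts per gene for 23354 genes; Trimmomatic, STAR 2.6.0, HTSeq 0.11.1 and edgeR, and the builds hg19 and hg38, are named in the submitters' processing notes without order. Totals of 18633963 to 24520078 counts per library set the precision, and counts under about 20 are imprecise.

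Genes were kept with filterByExpr (minimum count 10), which left 12800 genes in MV4-11, 12711 in KG-1a and 14055 over both lines. Counts were scaled by TMM and tested with edgeR 4.0.16 quasi-likelihood tests (R 4.3.3, limma 3.58.1) over the 12 libraries of a line, or 24 for differences between lines, and p-values were adjusted by Benjamini-Hochberg across every gene in the fit (threshold 0.05). Errors are Wald standard errors unless given as SD, and intervals are 95%. The code was tested on simulated data.

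The 10 genes, the other lists and the tests were chosen with earlier results of these data known. Genes outside the 10 were named where they were among the 3 of a list with the largest absolute log2 fold change that passed the test in all 4 comparisons of a time point, or the 3 most correlated with a member over 24 libraries (log2 CPM, prior count 2). Alternatives were DESeq2 1.42.0 (Wald test) and its size factors, upper quartile and library size scaling, no filter, a fit of all 24 libraries, a replicate block, and leaving out each library. Sequences came from RefSeq (GRCh38.p14) and GENCODE 29 (GRCh38).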

Additional observations from a re-analysis of the deposited data

Results flagged for a closer look

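The items here are differences between 2 responses that passed a test of the difference itself (edgeR quasi-likelihood, p-values adjusted by Benjamini-Hochberg). No group of 2 libraries was tested for an outlying library.

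Between times, the IER5 response to 8CA in MV4-11 was lower at 24 h than at 8 h (log2 difference -0.45, adjusted p = 0.0055). In KG-1a the IER2 response was higher at 24 h under 8CA (0.40, adjusted p = 0.027) and under 8AA (0.43, adjusted p = 0.021), and so was the JUND response to 8AA (0.41, adjusted p = 0.026).

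Between lines, the response in MV4-11 exceeded that in KG-1a for IER5 with 8CA at 8 h (0.50, adjusted p = 0.036), IER5 with 8AA at 8 h (0.48, adjusted p = 0.0092), JUND with 8AA at 8 h (0.57, adjusted p = 0.0014) and JUN with 8CA at 24 h (2.17, adjusted p = 0.0016). ZFP36 with 8AA at 24 h went the other way (-0.41, adjusted p = 0.023). The JUN, JUND (between lines) and IER5 (between times) calls were kept in every alternative run, and the other 6 were lost without 3 to 6 single libraries each.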

How the results depend on the processing

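Of 2858 alternatives of the 240 member values, 2716 kept their direction and side of the threshold, 89 lost a call, 53 gained one and 0 reversed. The cause of each change was not tested. The numbers of the 10 genes called moved by over 1.5 times in these cases, with the main number in parentheses. No filter gave 4 for MV4-11 8AA against 8CA at 8 h (2), 2 each for the time differences of 8CA (1) and 8AA (0) in MV4-11, 1 for untreated MV4-11 24 h against 8 h (0) and 3 for the line difference with 8AA at 24 h (1). All 24 libraries gave 4 for MV4-11 8AA against 8CA at 8 h and 1 for untreated MV4-11; DESeq2 size factors also gave 1 for untreated MV4-11. DESeq2 Wald tests gave 2 for KG-1a 8AA at 8 h (4), 1 for MV4-11 8AA against 8CA at 24 h (2) and 2 for KG-1a 8AA against 8CA at 24 h (5). Library size scaling gave 3 for KG-1a 8AA against 8CA at 24 h and 2 for the line difference with 8AA at 24 h, as did upper quartile scaling (2).

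The labels do not say what libraries of the same letter, A or B, share. Their deviations correlated between -0.117 and 0.159 over group pairs in MV4-11 and between -0.0846 and 0.161 in KG-1a. In MV4-11 6 of 15 pairs exceeded 0.1, among them all 3 pairs at 8 h, and in KG-1a 2 of 15 did. With the replicate block the numbers were 5 for MV4-11 8CA at 24 h (3), 4 for MV4-11 8AA against 8CA at 8 h, 2 for the time difference of 8AA in MV4-11 and 1 for untreated MV4-11. With it FOS fell with 8CA in MV4-11 at 8 h (-0.42, adjusted p = 0.0033) and at 24 h (-0.33, adjusted p = 0.0072), as it did without the filter (adjusted p = 4.7e-05 and 0.0026).

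Leaving out single libraries gave 2 to 5 genes for MV4-11 8CA at 8 h (4), 2 to 3 for KG-1a 8AA at 8 h (4), 0 to 2 for KG-1a 8CA at 24 h (3) and 2 to 5 for KG-1a 8AA at 24 h (4). For 8AA against 8CA it gave 0 to 2 and 1 to 1 in MV4-11 at 8 h and 24 h (2 each), and 2 to 5 in KG-1a at 24 h (5). For time differences it gave 0 to 1 for MV4-11 8AA (0), 0 to 2 for KG-1a 8CA (1) and 0 to 3 for KG-1a 8AA (2). It gave 0 to 1 for untreated MV4-11 (0), and for line differences 0 to 1 and 1 to 2 at 8 h (8CA 1, 8AA 2) and 1 to 2 and 0 to 2 at 24 h (1 each). A lone remaining library was assumed to vary like the others. Counts of 1 to 31 in KG-1a limit FOS, FOSB, JUN and EGR1.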
